A study of Mus musculus with 4 samples.

Results

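Heterotrimeric G protein subunits and RGS proteins were examined in bone marrow progenitors of WT and GRK6-/- mice. The genes were taken by symbol: the alpha subunits Gna11 to Gna15, Gnai1 to Gnai3, Gnal, Gnao1, Gnaq, Gnas and Gnaz, the beta subunits Gnb1 to Gnb5, and every gene named Gng or Rgs followed by a number. The rule found 34 of the 12417 genes with a value, of which 23 encode G protein subunits (13 alpha, 4 beta and 6 gamma) and 11 encode RGS proteins. A further 15 symbols of these families had no row in any library, among them Gnb3, Rgs4, Rgs5 and all R7 RGS genes (Rgs6, Rgs7, Rgs9 and Rgs11).

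The study prepared 1 pooled cDNA library from each of 4 groups, so no group has a replicate. WT HSC and GRK6-/- HSC were sorted as Lin-c-kit+sca-1+ cells. The gate of WT CLP and GRK6-/- CLP was Lin-c-kit+sca-1+Il-7Ra+. Each library came from 13 to 15 hand-picked cells of 3 to 4 C57BL/6 mice aged 8 to 12 weeks, amplified cell by cell and then combined. WT and GRK6-/- mice were littermates, and the GRK6 allele lacks exons 3 to 9 in all cells of the animal. The HSC gate holds all Lin-c-kit+sca-1+ cells and is therefore wider than stem cells alone. In pools of so few cells, fewer cells expressing a gene and less RNA per cell cannot be told apart.

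Values are FPKM, which are sequenced fragments scaled to transcript length and to the size of the library. Grk6, the targeted gene, had 42.7 FPKM in WT HSC, 89.4 in the library labelled GRK6-/- HSC, 26.9 in WT CLP and 57.6 in the library labelled GRK6-/- CLP. Both libraries labelled GRK6-/- were thus higher than their WT counterparts, so this value gives the labels no support. The value covers the whole gene and does not show which exons were read, so it does not check the deletion, and every genotype direction given here rests on the labels. Il7r, the receptor of the CLP gate, had no row in WT HSC, 1.08 FPKM in the library labelled GRK6-/- HSC, 120 in WT CLP and 75.1 in the library labelled GRK6-/- CLP. Kit ranged from 26.2 to 81.8 FPKM. In the same order of libraries, Flt3 had 54.5, 23.8, 124 and 219 FPKM and Cd34 151, 338, 165 and 244. Slamf1 had 8.91, 0.689, 0.172 and 0.136 FPKM. The markers of the sorted cells thus differed between the 2 HSC libraries too, and their part in the genotype ratios was not tested. Ly6a, the gene of Sca-1, was named only in 1 joint row of 5 genes in WT HSC and could not be checked. Markers of other cells also differed: 9 erythroid genes summed to 38.1, 746, 19.8 and 17533 FPKM in the order just given, and 9 B lineage genes to 41.9, 35.5, 309.9 and 1566. Rows were present for 5 or 6 of the erythroid genes, with none for Hba-a1, Hbb-b1 or Hbb-b2 in any library, and for 1, 3, 8 and 8 of the B lineage genes, with none for Pax5. A list of 11 neutrophil and monocyte genes, with rows for 8, 7, 8 and 7 and none for Ly6g, summed to 17759, 11227, 9198 and 7744 FPKM, and 7 T and NK lineage genes to 17.7, 17.6, 0.257 and 10.0. Low FPKM values placed the libraries at about 2960000, 3880000, 4470000 and 2760000 fragments. A single fragment in a transcript of 2 kb was then worth 0.112 to 0.181 FPKM, so at about that length values under 1 FPKM rest on a few fragments.

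A heterotrimeric G protein couples a membrane receptor to enzymes inside the cell. The activated receptor makes the alpha subunit exchange GDP for GTP, the alpha subunit parts from the beta-gamma dimer, and both act on effectors: Gs alpha raises cyclic AMP, Gi alpha lowers it and Gq/11 alpha activates phospholipase C-beta. RGS proteins speed GTP hydrolysis by alpha subunits and so shorten the signal, while GRK6 phosphorylates active receptors and uncouples them from G proteins. In blood progenitors, Gi-coupled chemokine receptors such as CXCR4 guide retention in the marrow.

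Upstream sequences are shown for 3 members whose values differed between genotypes, Gna12, Rgs12 and Rgs2. They were chosen after their values were seen, and they are given to show the promoter letters beside those values. Each run is the 250 bases before the RefSeq start site in GRCm38.p6, a later build than the mm9 of the expression files, read on the strand of the gene. Capitals mark matches on either strand to 3 motifs. These are the CCAAT box, spelled CCAAT, the GC box, spelled GGGCGG, and the core of a cyclic AMP response element, spelled TGACG.
Gna12, chr5:140830432-140830681, minus strand: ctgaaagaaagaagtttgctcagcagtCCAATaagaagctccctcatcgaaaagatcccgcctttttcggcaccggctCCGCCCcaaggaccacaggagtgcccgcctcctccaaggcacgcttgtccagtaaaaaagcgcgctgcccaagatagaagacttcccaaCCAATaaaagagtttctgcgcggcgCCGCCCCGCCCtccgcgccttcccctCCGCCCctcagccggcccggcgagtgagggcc
Rgs12, chr5:34949198-34949447, plus strand, the first of 2 entries: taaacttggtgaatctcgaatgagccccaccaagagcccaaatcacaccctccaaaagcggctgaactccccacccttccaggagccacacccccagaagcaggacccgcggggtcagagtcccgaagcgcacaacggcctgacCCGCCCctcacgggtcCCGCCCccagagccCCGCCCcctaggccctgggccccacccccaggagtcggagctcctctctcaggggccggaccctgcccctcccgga
Rgs2, chr1:144004150-144004399, minus strand: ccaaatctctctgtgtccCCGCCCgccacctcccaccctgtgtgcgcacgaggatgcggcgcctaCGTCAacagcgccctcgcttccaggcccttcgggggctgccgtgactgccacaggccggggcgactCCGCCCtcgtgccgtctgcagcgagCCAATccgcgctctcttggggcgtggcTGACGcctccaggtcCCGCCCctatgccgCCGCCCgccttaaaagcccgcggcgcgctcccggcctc
The Gna12 window held 2 CCAAT boxes and 4 GC boxes, 2 of which overlap by 1 base, and its GC content was 61.2%. The Rgs12 window held 3 GC boxes at 68.4% GC, and the Rgs2 window 1 CCAAT box, 4 GC boxes and 2 TGACG matches at 72.4% GC. Over 32851 mouse windows of the same length, the mean GC content was 53.2%, and 33.8% held a CCAAT box, 32.7% a GC box and 17.8% a TGACG match. None of the 3 windows held the TATA box (letters TATAAA, in 12.4% of windows), the E-box (letters CACGTG, in 6.02%) or the GATA motif (letters AGATAA, in 9.99%). RefSeq upstream sequences were at hand for 25 of the 34 members. Such matches describe letters and are not evidence of binding.

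Most of the 34 members were well expressed, while 15 further symbols of the families had no row. Of the 34 members, 26 had a row in WT HSC, 29 in the library labelled GRK6-/- HSC, 25 in WT CLP and 27 in the library labelled GRK6-/- CLP. Their median FPKM was 29.8, 23.9, 34.1 and 21.1 in these libraries, against 10.7, 9.25, 11.9 and 11.97 over all genes with a row. All 4 libraries had a row for 22 members, while 2 members had rows in 3 libraries, 3 in 2 and 7 in only 1. At least 10 FPKM in at least 1 library was reached by 23 members, and the other 11 had at most 8.23.

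**Figure D1:**
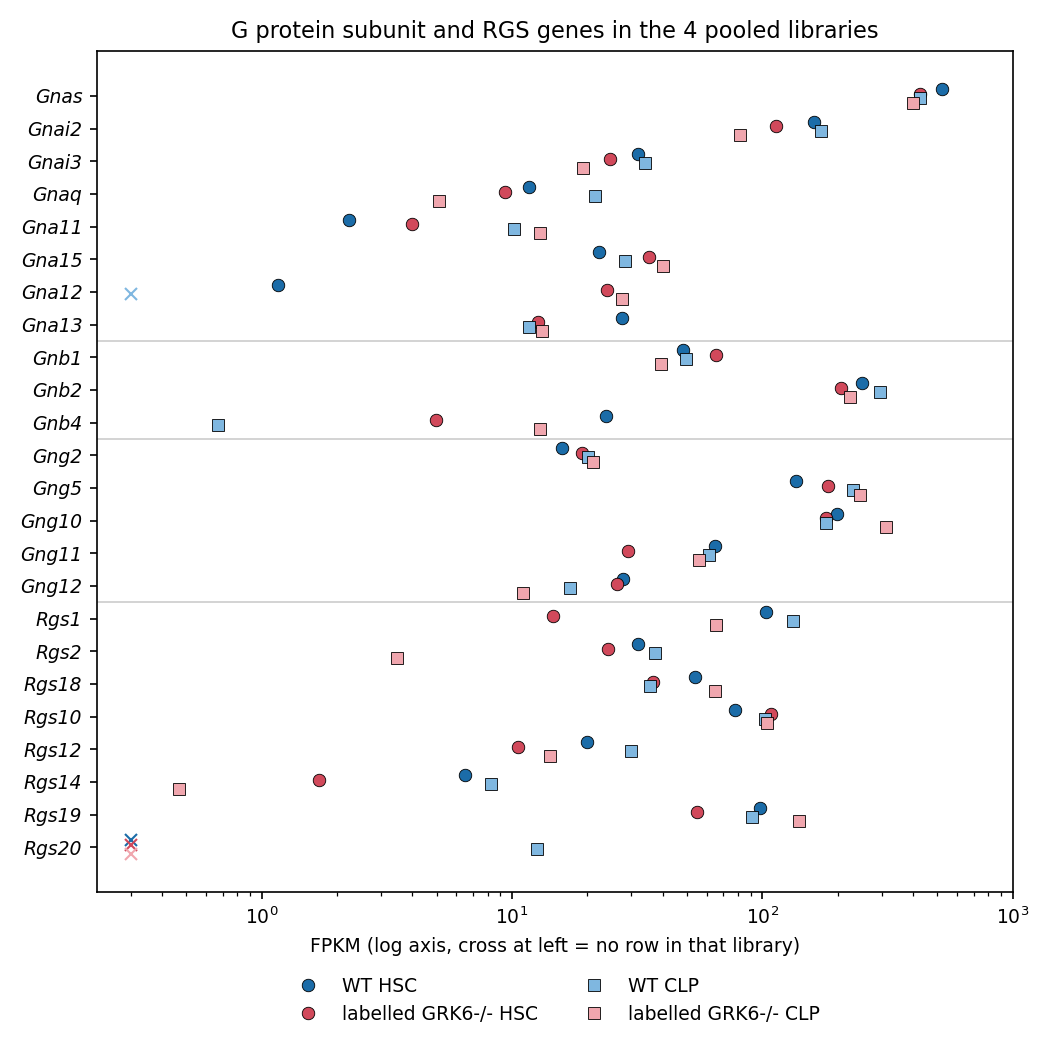
FPKM (log axis) of the members with at least 10 FPKM in at least 1 library, and of Rgs14, in the 4 pooled libraries, each point being 1 library and a cross at the left edge a library with no row. Gnas, Gnb2, Gng5 and Gng10 lie at the right in all 4 libraries, while Gna12, Gnb4, Rgs1, Rgs2 and Rgs14 are spread widely.

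Among the alpha subunits, Gnas was by far the most abundant. Gnas, which encodes Gs alpha, had 523 FPKM in WT HSC, 426 in the library labelled GRK6-/- HSC, 425 in WT CLP and 399.6 in the library labelled GRK6-/- CLP. It made up 65.4% to 66.6% of the summed alpha FPKM in the HSC libraries, 60.5% in WT CLP and 66.4% in the library labelled GRK6-/- CLP. The gene (chr2:174109821-174172248, mm9, plus strand) has 22 annotated transcripts and shares exon positions with the antisense genes Nespas and AF085738, so part of its value may belong to these transcripts.

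Gnai2, the main Gi alpha of blood cells, followed with 160.5 FPKM in WT HSC, 113 in the library labelled GRK6-/- HSC, 171 in WT CLP and 81.8 in the library labelled GRK6-/- CLP. Gnai3, its close relative, had 32.0, 24.7, 34.1 and 19.3 FPKM in the same order. Both Gi alpha genes were lower in the library labelled GRK6-/- of each population, with log2 ratios of FPKM + 1 of -0.50 in HSC and -1.06 in CLP for Gnai2, and of -0.36 and -0.79 for Gnai3. The share of Gi/o genes in the summed alpha FPKM was 24.6% in WT HSC and 21.2% in the library labelled GRK6-/- HSC, then 29.3% in WT CLP and 17.1% in the library labelled GRK6-/- CLP.

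The Gq/11 alpha subunits did not move together. Gnaq had 11.7 FPKM in WT HSC, 9.36 in the library labelled GRK6-/- HSC, 21.5 in WT CLP and 5.13 in the library labelled GRK6-/- CLP, and was thus 4.20 times lower between the CLP libraries. Gna15, an alpha subunit of blood cells that couples to many receptors, had 22.3, 35.4, 28.2 and 40.1 FPKM and stood higher in the library labelled GRK6-/- of both populations. Its neighbour on chromosome 10, Gna11, was higher in both CLP libraries, with 2.24 and 4.00 FPKM in the HSC and 10.2 and 12.9 in the CLP libraries. The B lineage genes were higher in the CLP libraries too (309.9 and 1566 FPKM against 41.9 and 35.5), and their part in the Gna11 difference was not tested. The 4 Gq/11 genes together ran from 4.70% of the summed alpha FPKM in WT HSC to 9.67% in the library labelled GRK6-/- CLP.

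The G12/13 genes showed the widest contrast of the alpha subunits. Gna12 (chr5:141234352-141306385, mm9, minus strand) had 1.16 FPKM in WT HSC, 23.9 in the library labelled GRK6-/- HSC, no row in WT CLP and 27.6 in the library labelled GRK6-/- CLP. These values correspond to about 12, 317 and 260 fragments where a row exists. Both libraries labelled GRK6-/- were high and both WT libraries low, and the HSC values differed 20.7 times. No row of another gene covered the locus in WT CLP. The erythroid genes were also highest in both libraries labelled GRK6-/- (746 and 17533 FPKM against 38.1 and 19.8), and their part in the Gna12 difference was not tested. Gna13, the other member of the class, went the other way in HSC, with 27.6 FPKM in WT HSC and 12.7 in the library labelled GRK6-/- HSC, and had 11.8 and 13.2 in the CLP libraries. Gna13, Gnal, Gnao1, Gng12 and Rgs20 each share an exon position with an antisense gene, whose fragments cannot be told apart where strand is not recorded.

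**Figure D2:**
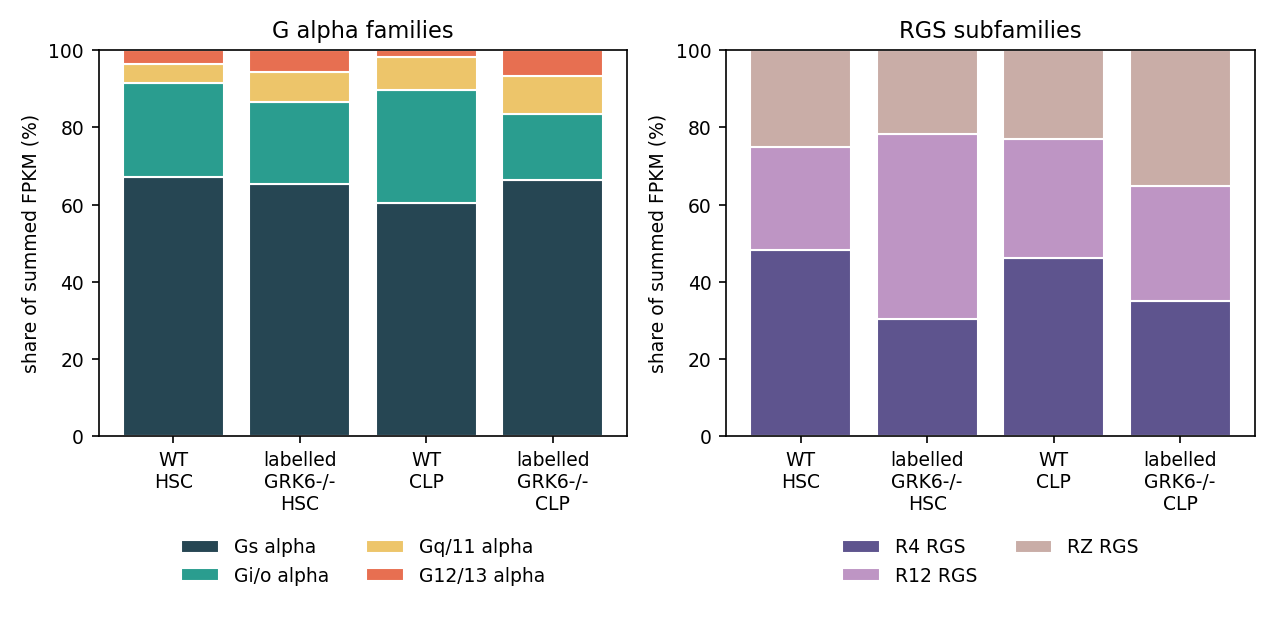
Share (%) of the summed FPKM taken by each alpha subunit family (left) and by each RGS subfamily (right) in the 4 pooled libraries, with 1 library per bar. Gs alpha takes 60.5% to 67.1% of every alpha bar, while the R4 RGS share is 48.3% and 46.0% in the WT bars and 30.4% and 34.9% in the bars labelled GRK6-/-.

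Beta subunit RNA was mostly Gnb2. Gnb2 had 251 FPKM in WT HSC, 206 in the library labelled GRK6-/- HSC, 296 in WT CLP and 224 in the library labelled GRK6-/- CLP, which is 74.6% to 85.5% of the summed beta FPKM. Gnb1 had 48.1, 65.2, 49.6 and 39.5 FPKM. Both stayed within a factor of 2 over the libraries. Gnb2 shares an exon position with Epo on the same strand in the annotation, so fragments of the shared stretch could be assigned to either.

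Gnb4 differed most among the members with a row in every library. It had 23.8 FPKM in WT HSC, 4.99 in the library labelled GRK6-/- HSC, 0.671 in WT CLP and 13.0 in the library labelled GRK6-/- CLP, or about 422, 116, 18 and 215 fragments. The library labelled GRK6-/- was thus 4.76 times lower than WT in HSC and 19.3 times higher in CLP. A list of 10 megakaryocyte and platelet genes, of which 6, 6, 4 and 6 had a row and Gp6 had none in any library, summed to 202, 37.3, 72.9 and 159 FPKM in the same order. Itga2b, the platelet integrin alpha IIb, had 47.0, 4.20, 2.52 and 46.0 FPKM, and Gp9 27.0, 6.70, 0.344 and 32.8. Pf4 had 75.4 FPKM in WT HSC, no row in the library labelled GRK6-/- HSC, 10.7 in WT CLP and 36.6 in the library labelled GRK6-/- CLP. Gnb4 and these genes were high in the same 2 libraries and low in the same 2, and the part of such cells in the Gnb4 difference was not tested.

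Of the gamma subunits, Gng10 and Gng5 gave most of the RNA. Gng10 had 198 FPKM in WT HSC, 180.4 in the library labelled GRK6-/- HSC, 179 in WT CLP and 312 in the library labelled GRK6-/- CLP. Gng5 had 137, 183, 231 and 246 FPKM. Gng10 made up 35.2% to 47.8% of the summed gamma FPKM and Gng5 30.8% to 45.5%. Gng10 shares an exon position with Gm20503 on the same strand. Gng11 had 65.0 FPKM in WT HSC against 29.2 in the library labelled GRK6-/- HSC, and 61.1 and 55.9 in the CLP libraries. Gng12 was lower in the CLP than in the HSC libraries, with 27.7 and 26.2 FPKM in HSC and 17.1 and 11.1 in CLP. The most even of the gamma subunits was Gng2, with 15.9, 19.0, 20.2 and 21.1 FPKM. Gng7 was seen almost only in the library labelled GRK6-/- CLP, with 6.74 FPKM there, 0.155 in the library labelled GRK6-/- HSC and no row in either WT library. That library also had the highest erythroid sum (17533 FPKM) and the highest B lineage sum (1566 FPKM). The part of either in the Gng7 value, and in that of Rgs8 given further on, was not tested.

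The R4 class comprises small proteins built of little more than the RGS domain. Rgs1, which restrains chemokine receptor signals in lymphocytes, had 103 FPKM in WT HSC, 14.6 in the library labelled GRK6-/- HSC, 132 in WT CLP and 65.6 in the library labelled GRK6-/- CLP. These are about 447, 83, 865 and 265 fragments. Both libraries labelled GRK6-/- lay below both WT libraries, 7.04 times below in HSC and 2.01 times below in CLP. The neutrophil and monocyte sum was also lower in the library labelled GRK6-/- of each population, as Gnai2, Gnai3, Rgs1, Rgs2, Rgs12 and Rgs14 among others were, and its part in these differences was not tested.

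Rgs2, which acts by preference on Gq alpha, had 31.8 FPKM in WT HSC, 24.3 in the library labelled GRK6-/- HSC, 37.4 in WT CLP and 3.49 in the library labelled GRK6-/- CLP. Only the last library stood apart, 10.7 times below WT CLP, on about 29 fragments. Rgs18, a regulator in platelets and megakaryocytes, had 54.0, 36.5, 35.5 and 64.7 FPKM and was high in the same 2 libraries as Gnb4. Rgs1, Rgs2 and Rgs18 lie near each other on the minus strand of chromosome 1, at chr1:146091799-146096234, chr1:145846468-145851279 and chr1:146599820-146622552 in mm9, and their values did not follow one order.

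The R12 class comprises Rgs10, Rgs12 and Rgs14. Rgs10, the smallest of them, was even, with 78.1 FPKM in WT HSC, 109 in the library labelled GRK6-/- HSC, 103 in WT CLP and 104 in the library labelled GRK6-/- CLP. Rgs12 had 19.9, 10.6, 30.0 and 14.2 FPKM. Rgs14, which like Rgs12 carries a GoLoco motif that holds Gi alpha in the GDP form, had 6.49, 1.70, 8.23 and 0.469 FPKM, on about 45, 16, 87 and 3 fragments. Rgs12 and Rgs14 were lower in the library labelled GRK6-/- of both populations. The Rgs14 FPKM was 3.81 times lower in HSC and 17.5 times lower in CLP, the latter against about 3 fragments. Computed from the estimated fragments, it was 3.69 times lower in HSC (95% interval 2.04 to 6.99) and 17.9 times in CLP (5.93 to 88.5). The intervals are exact binomial ones over the estimated fragments and cover counting error only.

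The RZ class was carried by Rgs19, a regulator of Gi alpha, with 98.0 FPKM in WT HSC, 54.9 in the library labelled GRK6-/- HSC, 91.4 in WT CLP and 141 in the library labelled GRK6-/- CLP. Rgs20 had 12.7 FPKM in WT CLP and no row in the other 3 libraries. Summed over the 11 RGS genes, the level was 391 FPKM in WT HSC, 253 in the library labelled GRK6-/- HSC, 454 in WT CLP and 399 in the library labelled GRK6-/- CLP. The R4 share of this sum was 48.3%, 30.4%, 46.0% and 34.9%, and the R12 share 26.7%, 47.9%, 31.0% and 29.8%.

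The members with at most 8.23 FPKM, apart from Rgs14 and Gng7, were Gna14, Gnai1, Gnal, Gnao1, Gnaz, Gnb5, Rgs3, Rgs8 and Rgs16. Rgs8 had no row in WT HSC, 0.0439 FPKM in the library labelled GRK6-/- HSC, 0.767 in WT CLP and 5.39 in the library labelled GRK6-/- CLP. Rgs3 had 1.20 FPKM in the library labelled GRK6-/- HSC, 2.94 in WT CLP and no row elsewhere. Gna14 had 0.616 and 1.54 FPKM in the WT and labelled GRK6-/- HSC libraries and no row in CLP. The other 6 had a row in 1 library each, from 0.0564 FPKM for Gnao1 in WT HSC to 3.39 for Gnal in the same library. Where Gnal had no row, rows of Mppe1 and Chmp1b overlapped its locus. At these levels a missing row is not evidence that the RNA was absent.

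The genotype comparison asked which members differed between GRK6-/- and WT cells of the same population. With 1 library per group there is no test within a population, and a gene is counted here when its log2 ratio of FPKM + 1 was at least 1 in size, that is 2-fold. A missing row entered this ratio as 0. In HSC, 31 members had a row in at least 1 of the 2 libraries and 8 passed 2-fold, against 37.4% of all 11624 genes. Gna12 and Rgs3 were higher in the library labelled GRK6-/- HSC (19.3% of all genes were), and Gna13, Gnal, Gnb4, Gng11, Rgs1 and Rgs14 lower (18.0% of all genes). The share of members past 2-fold was 25.8%, below that of all genes, whereas past 4-fold it was 4 of 31 against 12.4% and thus close to it. The median log2 ratio of these members was -0.14, and that of all genes was 0.05. The 4 that passed with at least 10 FPKM in WT HSC were Rgs1 at -2.73, Gnb4 at -2.05, Gng11 at -1.13 and Gna13 at -1.06, while Gna12 stood at 3.53. With at least 10 FPKM in 1 of the 2 libraries, 5 of 21 members passed, against 38.3% of such genes. The median FPKM of the members was above that of all genes in every library, and its part in these shares was not tested.

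In CLP, 29 members had a row and 12 passed 2-fold, against 50.0% of all 11191 genes. The library labelled GRK6-/- CLP was higher for Gna12, Gnaz, Gnb4, Gng7 and Rgs8, where 26.6% of all genes were higher. It was lower for Gnai2, Gnaq, Rgs2, Rgs3, Rgs12, Rgs14 and Rgs20, where 23.4% of all genes were lower. Of these 12, 5 (Gna12, Gnaz, Gng7, Rgs3 and Rgs20) had no row in 1 of the 2 libraries. Among those with both rows, Rgs2 stood at -3.10, Rgs14 at -2.65, Gnaq at -1.88, Gnai2 at -1.06, Rgs12 at -1.03, Gnb4 at 3.06 and Rgs8 at 1.85. Rgs1, 2.01 times lower in FPKM, lay just short of the limit on the scale of FPKM + 1. The members' share was 41.4%, on 29 members, and their median log2 ratio was 0.02 against 0.05. With at least 10 FPKM in 1 of the 2 libraries, 7 of 23 members and 50.7% of such genes passed 2-fold. As in HSC, the part of the members' higher FPKM in these shares was not tested.

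**Figure D3:**
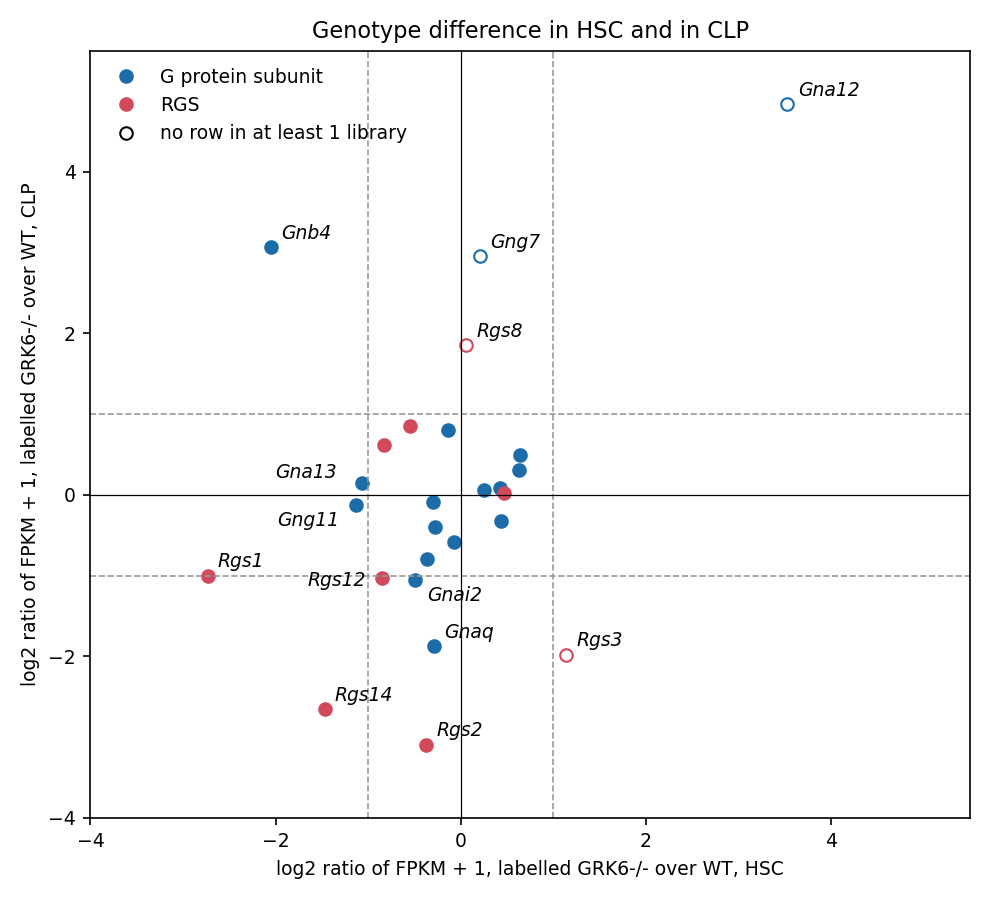
Log2 ratio of FPKM + 1 between the library labelled GRK6-/- and the WT library in HSC (horizontal) and in CLP (vertical), with 1 point per member that had a row in each comparison (26 members) and dashed lines at 2-fold. Gna12 alone lies past both lines at the upper right and Rgs14 alone at the lower left, while Gnb4 lies at the upper left and Rgs3 at the lower right.

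Of the 26 members with a row in each comparison, 13 passed 2-fold in neither population. Past 2-fold in both populations, Rgs14 was lower (4.43% of 10398 genes were) and Gna12 higher (5.66%). Gnb4 and Rgs3 passed in opposite directions (10.8%). The sign was the same in both populations for 19 of the 26, and Pearson's r across them was 0.382. Over the 22 members with 4 rows, r was 0.011 and the sign was the same for 16. The matching values over all genes were not computed for the count past 2-fold in neither population, the sign or r. These figures therefore do not show agreement particular to the members. Members are not independent replicates and are described only.

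A genotype difference shared by HSC and CLP was tested over 11230 genes with limma, population being a second term. The fit has 1 residual degree of freedom and takes its spread from the trend over all genes. At a Benjamini-Hochberg adjusted p under 0.05 it called 57 genes, or 0.508%, and 0 of the 30 members that passed its filter. An unadjusted p under 0.05 was reached by 2 members and by 5.80% of all genes. Gna12 was higher by 4.18 on the log2 scale (SE 1.30), with a limma p of 0.0013 and an adjusted p of 0.171, a value that depends on its missing row in WT CLP. Rgs1 fell short as well, with a difference of -1.87 (SE 0.68), a limma p of 0.0060 and an adjusted p of 0.405. For Rgs14 and Rgs2 the limma differences were -2.06 (SE 1.39) and -1.74, with adjusted p of 0.998 and 0.899.

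The comparison of CLP with HSC asked whether the lymphoid population used other G protein genes. In WT cells 29 members had a row and 7 passed 2-fold, against 46.5% of all 11202 genes. Gna11, Rgs3 and Rgs20 were higher in WT CLP (21.8% of all genes were), and Gna12, Gna13, Gnal and Gnb4 lower (24.7%). In the libraries labelled GRK6-/- 31 members had a row and 11 passed, against 45.6% of all 11708 genes. Gna11, Gnaz, Gnb4, Gng7, Rgs1, Rgs8 and Rgs19 were higher in the library labelled GRK6-/- CLP (22.3%), and Gna14, Gng12, Rgs2 and Rgs3 lower (23.4%). Gna11 was the only member higher in CLP by at least 2-fold under both genotypes (5.98% of 10493 genes were). At this limit 0 were lower in both (6.82%), and Gnb4 and Rgs3 passed in opposite directions (11.3%). The log2 ratio of Gna11 was 1.79 in WT and 1.48 in the libraries labelled GRK6-/-. The filter at 10 FPKM left 4 of 22 members past 2-fold in WT (47.6% of such genes) and 6 of 21 in the libraries labelled GRK6-/- (47.1%). In limma the difference common to both genotypes called 80 genes, or 0.712%, and 0 members. No member reached an unadjusted p under 0.05, which 6.84% of all genes did, and Gna11 had a difference of 1.63 (SE 1.27) with a limma adjusted p of 0.969.

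**Figure D4:**
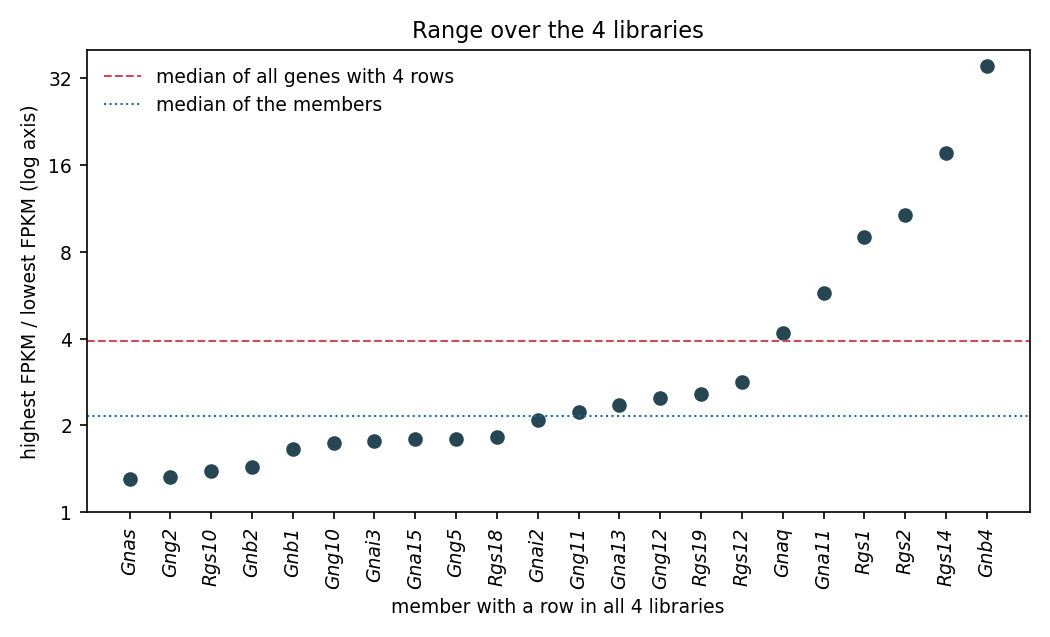
Highest FPKM divided by lowest FPKM over the 4 pooled libraries (log axis) for the 22 members with a row in every library, in order. The members run from 1.31 (Gnas) to 35.4 (Gnb4), with a median of 2.16 against 3.91 over all genes with 4 rows.

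The spread over the 4 libraries differed widely between members. The ratio of the highest to the lowest FPKM was 1.31 for Gnas, 1.33 for Gng2, 1.39 for Rgs10 and 1.44 for Gnb2. It was under 2 for 10 of the 22 members with 4 rows, or 45.5%, against 18.1% of 8246 genes. Among genes with at least 10 FPKM in at least 1 library, it was under 2 for 47.6% of 21 members and 20.3% of 6631 genes. This filter does not match FPKM levels. The members' median FPKM was above that of all genes in every library, and the part of level in their evenness was not tested. The widest were Gnb4 at 35.4, Rgs14 at 17.5, Rgs2 at 10.7, Rgs1 at 9.02 and Gna11 at 5.77, of which 3 are RGS genes.

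Downstream of the subunits, 43 genes for adenylyl cyclases, phospholipases C-beta, protein kinase A subunits, phosphodiesterases, exchange factors and G protein chaperones were followed, of which 36 had a row. In HSC 13 of 34 passed 2-fold, 6 higher and 7 lower in the library labelled GRK6-/-, with a median log2 ratio of 0.07. In CLP 18 of 35 passed, 10 higher and 8 lower, with a median of 0.16. These counts stand beside the same 37.4% and 50.0% of all genes. Past 4-fold on the FPKM + 1 scale were 6 of 34 in HSC, against 12.4% of all genes, and 7 of 35 in CLP, against 24.8%. Of the genes past 4-fold in a population, 7 had at least 10 FPKM in 1 library and are given here. Adcy6, an adenylyl cyclase, had 0.718, 6.54, 2.18 and 15.7 FPKM in WT HSC, the library labelled GRK6-/- HSC, WT CLP and the library labelled GRK6-/- CLP, and was higher in both of those labelled GRK6-/-. Prkaca, the catalytic subunit of protein kinase A, had 28.1, 27.0, 6.95 and 43.6 FPKM, with the low value in WT CLP. Pde4d, which breaks down cyclic AMP, had 62.0, 44.8, 17.9 and 2.03 FPKM and was lower in CLP. Rapgef3, an exchange factor for Rap that is activated by cyclic AMP, was high in WT HSC only, with 15.9, 1.58, 3.90 and 3.13 FPKM. Ric8b, a chaperone of Gs alpha, had 0.361 and 2.77 FPKM in the HSC libraries, no row in WT CLP and 15.6 in the library labelled GRK6-/- CLP. Gpsm1 and Gpsm2 bind Gi alpha through GoLoco motifs. Gpsm1 had a row in the libraries labelled GRK6-/- only, at 6.93 FPKM in HSC and 11.97 in CLP. Gpsm2 had 10.8, 9.28 and 10.5 FPKM in WT HSC, WT CLP and the library labelled GRK6-/- CLP, and no row in the library labelled GRK6-/- HSC.

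Rgs14 lies close to the targeted gene. It occupies chr13:55471093-55486048 on the plus strand in mm9 and ends 60647 bp before Grk6, which runs from 55546695 to 55562297. The window around Grk6 was looked at after the Rgs14 values were seen. Within 500 kb of Grk6 the files held 22 other genes, of which 9 passed 2-fold in HSC and 10 in CLP, beside the 37.4% and 50.0% of all genes. Past 2-fold in both populations, Rgs14 and Ddx46, an RNA helicase, were lower in the library labelled GRK6-/-, as 4.43% of all genes were. Zfp346 was higher in both at this limit, as 5.66% were. Lman2, 82551 bp from Grk6 on the same side as Rgs14, had log2 ratios of -0.52 in HSC and -0.65 in CLP, and Pdlim7, 36551 bp away on the far side, of -0.17 and -0.30. Others were higher in both, with log2 ratios of 0.50 and 0.03 for Dok3, 62286 bp away, and of 0.32 and 0.21 for Prelid1, 120062 bp away. DNA next to the targeted allele is inherited together with it, so effects of that stretch and of the loss of GRK6 cannot be told apart.

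**Figure D5:**
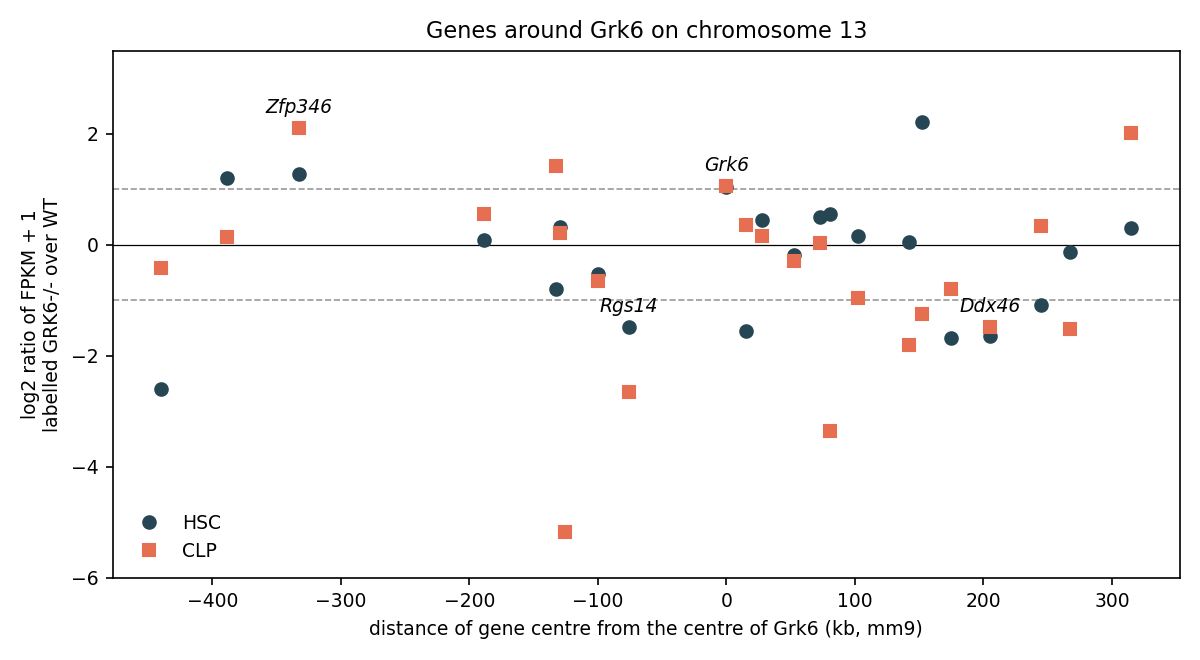
Log2 ratio of FPKM + 1 between the library labelled GRK6-/- and the WT library for Grk6 and the 22 genes within 500 kb, by distance (kb) of the gene centre from that of Grk6, with 1 point per population, a missing row taken as 0 and dashed lines at 2-fold. Rgs14 and Ddx46 lie past the lower line in both populations, and Grk6 lies just past the upper line at 1.05 and 1.07.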

How the data were processed

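The authors pooled amplified cDNA of sorted cells into 1 library per group, sequenced it, and deposited 1 FPKM value per gene and library, aligned to mm9 with TopHat 1.4.0 and computed with the Tuxedo suite. The filter behind missing rows is not given in the sources used here, so a missing row was taken as 0 in ratios and never as absence. No read counts were used. Fragments per library were estimated from the steps between low FPKM values of single-transcript genes. The protocol amplified cDNA by 20 and then 10 PCR cycles without molecular identifiers, so fragments are not independent molecules and counting intervals cover counting error only.

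Rows naming several genes (241 over the libraries, covering 325 genes) were left out, and rows of 1 symbol were summed. No member was affected. Ratios were log2((FPKM + 1)/(FPKM + 1)), and 2-fold was used as the limit. The common genotype and population differences were fitted with limma 3.58.1 in R 4.3.3, with a mean-variance trend and Benjamini-Hochberg adjustment over the 11230 genes with at least 1 FPKM in at least 1 library. Samples are pools without replicates, so the p-values do not measure variation between animals or between libraries of a group. The residual of a gene is the mismatch of its genotype difference between HSC and CLP. In the main fit the trend of this mismatch over all genes replaced the gene's own spread. Gene positions came from an annotation of mm9 (107 of 107 member rows overlapped the annotated gene), and upstream sequences from RefSeq, GRCm38.p6. Python 3.11.15, pandas 2.3.3 and numpy 2.4.6 were used.

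All members could be named; values in all libraries were given for members with at least 10 FPKM in at least 1 library, and pathway genes were named at 10 FPKM and a log2 ratio of at least 2 in size. The Rgs14, Rgs3, Rgs8, Gng7 and Gna14 values were given in addition, after they were seen. The members, lists and marker genes were chosen with earlier results of these data known. Alternatives changed the pseudocount, the filter, the scaling, the handling of rows and the size limit. The study's stated p-values for single genes were not used here.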

Additional observations from a re-analysis of the deposited data

Results flagged for a closer look

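Gnb4 drew attention because its 2 genotype ratios pointed in opposite directions, at -2.05 on the log2 scale of FPKM + 1 in HSC and 3.06 in CLP. Whether the 2 ratios differ was not tested, because a single library stands behind each genotype and population. Rgs3 did the same, at 1.14 in HSC and -1.98 in CLP, where a missing row in WT HSC and in the library labelled GRK6-/- CLP entered as 0, so both values depend on the pseudocount; here too the difference was not tested. Gngt2, a gamma subunit gene that the symbol rule does not take, had 89.8 FPKM in the library labelled GRK6-/- CLP against 21.2 in WT CLP.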

How the results depend on the processing

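The counts of members past 2-fold depended most on the limit and the filter. A 4-fold limit gave 4 of 31 members in place of 8 for genotype in HSC (12.4% of all genes, so that the members' share was no longer below it), 6 of 29 in place of 12 in CLP (24.8%), 3 of 29 in place of 7 for CLP against HSC in WT (20.5%) and 4 of 31 in place of 11 in the libraries labelled GRK6-/- (19.1%), and 6 in place of 13 and 7 in place of 18 pathway genes in HSC and CLP. Asking for a row in both libraries gave 7 of 23 members for genotype in CLP (45.0% of all genes), 3 of 22 for CLP against HSC in WT (42.9%), and 8 of 27 pathway genes in HSC (34.7%). At least 10 FPKM in 1 of the 2 libraries, a filter chosen after seeing the data, gave 5 of 21, 7 of 23, 4 of 22 and 6 of 21 members. The shares of such genes were 38.3%, 50.7%, 47.6% and 47.1% in these comparisons. Under the same filter 3 of 16 pathway genes passed in HSC, below the 38.3%, and 12 of 22 in CLP, slightly above the 50.7%. With a pseudocount of 0.1 FPKM, 11 of 31 members passed 2-fold for genotype in HSC, against 49.8% of all genes. The higher ones rose from 25.0% to 45.5% of those past 2-fold (5 of 11) by adding Gna14, Gng7 and Rgs16. Gna14 had 0.616 FPKM in WT HSC, and Gng7 and Rgs16 had no row there. This pseudocount carried 10 single values across the limit. Rescaling carried only Rgs1 in CLP across, to -1.01. No value reversed. The limma count of 0 members held under all 5 alternatives for both differences, with the lowest adjusted p of a member between 0.167 and 0.934 for genotype and between 0.710 and 0.833 for population. No paired analysis was possible because each group is 1 library without a replicate number. Leaving out a library left no residual degrees of freedom, and the values within each population and genotype stand in for it. Ratios with a value under 1 FPKM on one side rest on few fragments there and are uncertain. The CLP ratios given for Gnb4 and Rgs14 are of this kind. They rest on about 18 fragments of Gnb4 in WT CLP and about 3 of Rgs14 in the library labelled GRK6-/- CLP.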
